A study of Mus musculus with 6 samples.

Results

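Autophagy is the pathway by which a cell encloses its own cytoplasm in a double membrane, the autophagosome, and passes it to the lysosome for breakdown. The ULK kinase complex starts it, a class III phosphatidylinositol 3-kinase complex marks the membrane, WIPI, ATG2 and ATG9 proteins bring lipid to it, and a pair of ubiquitin-like conjugation systems attach ATG8 proteins (LC3 and GABARAP families) to it, where receptors dock with their cargo. In neutrophils the pathway is known for its part in granulocyte differentiation, in the handling of ingested particles and in the release of extracellular traps. The 35 genes described here are the core machinery of that pathway, chosen by name, and all 35 had a row in the deposited table of 51826 genes. All 35 passed the filter on low counts, as 16071 genes did, and each had more than 50 counts in every library.

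The RNA came from mouse bone marrow neutrophils that had been treated with microvesicles, which are membrane-bound particles released by cells. The vesicles came from Hepa1-6, a mouse liver cancer cell line, which had been deprived of glucose. In the Ctrl_MV group (3 libraries) the donor line was wild type, and in the KD_MV group (3 libraries) ezrin had been knocked down in it; both groups thus received vesicles of glucose-deprived cells, and neutrophils without vesicles are not analysed here. The labels give no vesicle dose, exposure time, strain, age or sex, no method of knockdown, and do not state whether the 3 libraries of a group had separate origins. Each p-value therefore reflects only how far these libraries differ from each other, and that spread may be technical. The question was how the transcripts of the recipient cells differed with the ezrin status of the vesicle donors.

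Total counts ran from 37346055 to 42043434 per library. KD_MV replicate 3 stood further from its group than any other library (chi-square per degree of freedom of 93.97 and 98.89 against its group, where the other pairs had 20.27 to 35.89). Neutrophil markers were present at very unlike levels, given here in CPM (counts scaled to a common library size, here with TMM). Lcn2, the most abundant of the 12 listed, was at 8794 and 4801 CPM on average in Ctrl_MV and KD_MV, and S100a9 at 1194 and 982. The surface marker Ly6g was low, at 2.29 and 1.86 CPM, as were Retnlg (2.48 and 0.49) and Cxcr2 (9.62 and 5.45). Of the 12 neutrophil markers 6 fell and 1 rose. Markers of other cells moved with the groups. The 11 erythroid markers tested summed to between 107079 and 124131 CPM in Ctrl_MV and to between 9364 and 10945 CPM in KD_MV, with 10 of 11 lower. B-lineage markers summed to between 812 and 1005 CPM in Ctrl_MV and to between 1728 and 1813 CPM in KD_MV, with 5 of 8 higher; eosinophil markers to between 23.96 and 27.0 and between 406 and 572 CPM, with 4 of 7 higher; megakaryocyte markers to between 47.9 and 59.9 and between 112 and 134 CPM, with 5 of 6 higher. Of 7 monocyte or macrophage markers 3 rose and 2 fell (sums of 1125 to 1359 and 767 to 868 CPM). The most abundant of these 7 were Adgre1 (705 and 331 CPM) and Csf1r (410 and 303 CPM). Of 6 T or NK cell markers 1 rose and 1 fell (sums of 30.7 to 33.4 and 26.8 to 32.1 CPM). Of 8 liver genes that would mark vesicle RNA only Alb and Afp passed the filter, both fell, and Ahsg, Fgb and Serpina1a were at 0 in every library. By the same test, which is described below, 24.9% of all tested genes fell and 27.8% rose. In these bulk libraries fewer cells of a type and less RNA per cell cannot be told apart. The part of this change in markers in the results below was not tested.

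Most core autophagy genes were lower in KD_MV relative to the typical gene. The furthest falls were those of the ATG8 gene Map1lc3b, the E1-like enzyme gene Atg7 and the ATG8 gene Gabarap. In edgeR's quasi-likelihood test (Benjamini-Hochberg adjusted p under 0.05 over all genes tested) 17 of the 35 members, or 48.6%, fell and 3, or 8.57%, rose, while 15 did not pass. Over all tested genes 24.9% fell and 27.8% rose. The 17 falls ran from -1.19 to -0.35 on the log2 scale (KD_MV minus Ctrl_MV throughout) and the 3 rises from 0.38 to 0.85. The KD_MV libraries lay below every Ctrl_MV library for 23 members and above for 3, against 29.3% and 32% of all tested genes. The median log2 fold change of the members was -0.38, that of all tested genes 0.03.

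The direction of the smaller changes depended on how libraries were scaled. With library size as the only scaling the median of all tested genes moved to 0.43 and that of the members to 0.02, 7 members then fell (12.5% of all tested genes did) and 7 rose (46.4%). With limma on log2(TPM + 1), where TPM is the deposited per-length level, the medians were 0.51 and 0.13, and 4 members fell (9.14% of all tested genes) and 12 rose (57.4%). Relative to the median tested gene the members' median was -0.41 with TMM, -0.41 with library size and -0.38 with TPM, and 29, 29 and 30 of the 35 members lay below that gene. The TPM test differs from the others also in its log transform, its length correction and its filter (13439 genes tested). No member that fell under TMM rose in either of the other tests. Atg12, Atg7, Gabarap and Map1lc3b fell in all 3 tests, and Pik3r4, Pik3c3 and Atg16l2 rose under all 3. The share of all tested genes called the same way in all 3 tests was not counted. Atg3, Gabarapl1 and Optn fell under TMM and library size. The other 10 falls (Atg101, Atg13, Atg14, Atg5, Atg9a, Becn1, Calcoco1, Gabarapl2, Tax1bp1 and Wipi2) passed under TMM and under neither library size nor TPM.

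**Figure D1:**
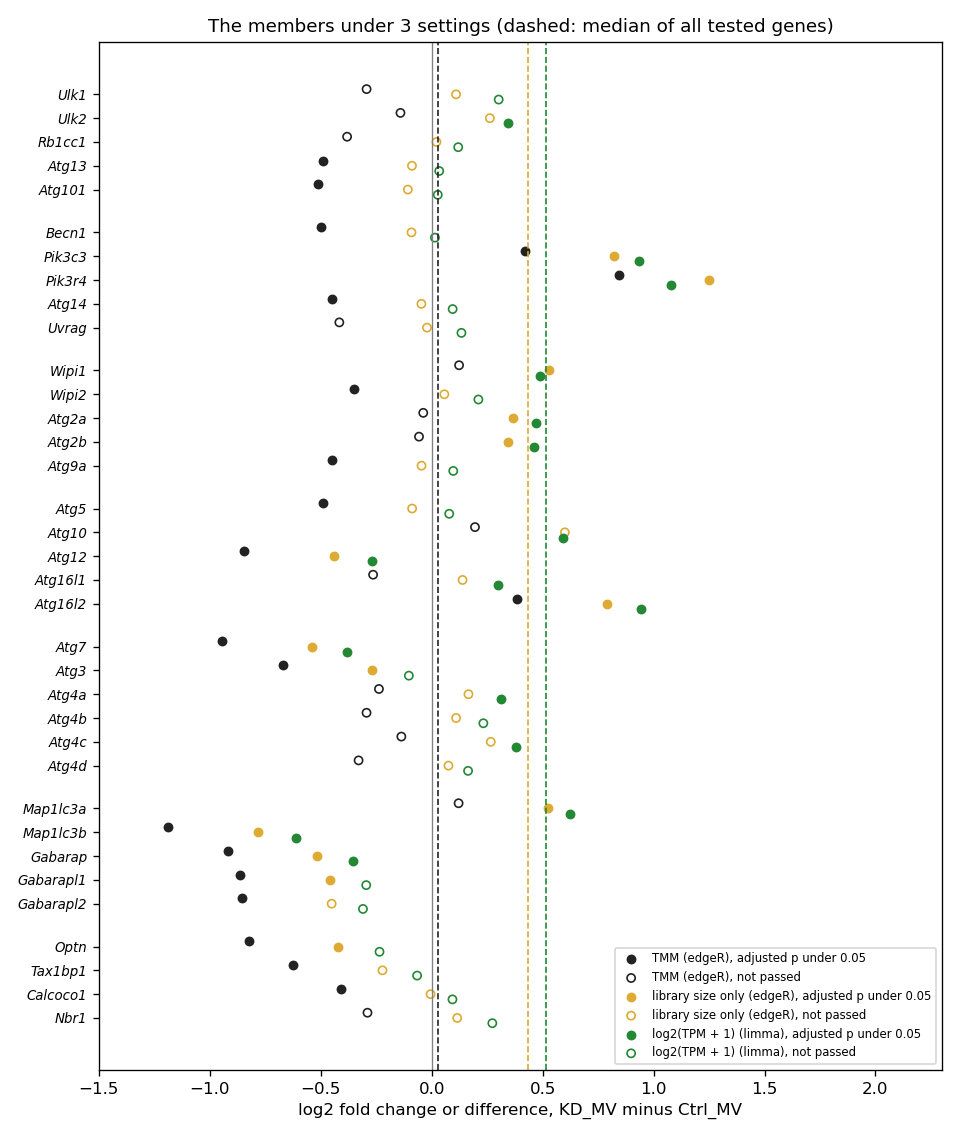
Log2 fold change (edgeR) or difference in log2(TPM + 1) (limma) of each of the 35 members, KD_MV minus Ctrl_MV, under TMM scaling, library size only and TPM, ordered by role, with filled points for an adjusted p under 0.05. Dashed lines mark the median of all tested genes (0.03, 0.43 and 0.51): most members lie to the left of the line of their own colour, Map1lc3b furthest, and Pik3r4 lies to the right of it in each test.

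Of the 5 genes for ATG8 proteins, the ubiquitin-like tags that are joined to the autophagosome membrane, 4 fell under TMM (24.9% of all tested genes did). Map1lc3b, which encodes LC3B, the protein most used to follow autophagosomes (chromosome 8, 121590361 to 121598760, mm10), was at 239, 181 and 199 CPM in Ctrl_MV replicates 1, 2 and 3 and at 106, 98.2 and 67.2 CPM in KD_MV replicates 1, 2 and 3. All 3 KD_MV libraries lay below the lowest Ctrl_MV library, and KD_MV replicate 3 was the lowest. The group means were 206 ± 29.4 and 90.5 ± 20.6 CPM (± SD, n = 3), a log2 fold change of -1.19 ± 0.18 (± SE, edgeR adjusted p = 0.000623). Here and below ± is the SE for log2 fold changes, and the SD of the 3 libraries for means, shares and ratios. It fell by 0.78 with library size only (adjusted p = 0.00509) and by 0.61 with TPM (limma adjusted p = 0.0216). Gabarap, the most abundant member of all 35, was at 702, 838 and 894 CPM in Ctrl_MV and at 415, 375 and 497 CPM in KD_MV. The groups did not overlap in CPM (log2 fold change -0.92 ± 0.14, edgeR adjusted p = 0.000662). In TPM they did, with KD_MV replicate 3 (737) above Ctrl_MV replicate 1 (716). The TPM difference was -0.35, near the threshold (limma adjusted p = 0.0497). Gabarapl1 (138, 117 and 131 against 78.3, 72.0 and 61.9 CPM; log2 fold change -0.86) and Gabarapl2 (73.6, 65.1 and 77.5 against 48.7, 41.6 and 29.1 CPM; -0.86) fell by a like amount under TMM. Map1lc3a, which encodes LC3A, did not pass (7.80, 8.69 and 9.65 against 10.4, 9.33 and 8.75 CPM; log2 fold change 0.12, edgeR adjusted p = 0.498), though it did under library size (0.52, adjusted p = 0.0113) and TPM (0.63, adjusted p = 0.00145).

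On the per-length TPM scale, the 5 ATG8 genes summed to 1008, 1072 and 1130 TPM in Ctrl_MV and to 829, 786 and 904 TPM in KD_MV, so the groups did not overlap even on the scale on which most genes were higher in KD_MV. Gabarap supplied 75.3 ± 3.70% of that sum in Ctrl_MV and 75.1 ± 5.58% in KD_MV, and the shares of Map1lc3b, Gabarapl1 and Gabarapl2 also overlapped between the groups. The share of Map1lc3a was 0.973, 0.994 and 1.03% in Ctrl_MV and 2.17, 2.198 and 1.74% in KD_MV, without overlap. Such shares within a library do not depend on how libraries are scaled, but they do depend on the gene lengths behind the TPM. Those lengths differed between libraries by about 1.03 times for Map1lc3a, and by less for the other ATG8 genes. The ratio of raw counts of Map1lc3a to Map1lc3b likewise went from 0.0430 ± 0.00894 to 0.108 ± 0.0197, whereas that of Map1lc3b to Gabarap, at 0.260 ± 0.0696 and 0.218 ± 0.0714, overlapped between the groups. The count ratios given here and below were chosen after the values were seen, and carry no test.

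**Figure D2:**
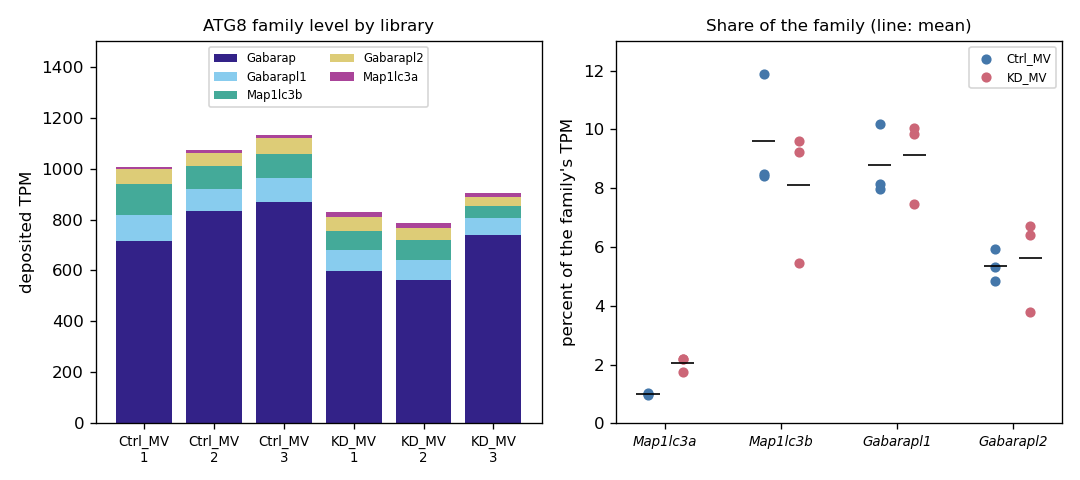
Left, deposited TPM of the 5 ATG8 genes in each library, stacked, with totals of 1008 to 1130 in Ctrl_MV and 786 to 904 in KD_MV. Right, share of that total by library for the 4 less abundant genes, each point a library and each line a group mean; the groups are apart for Map1lc3a and overlap for Map1lc3b, Gabarapl1 and Gabarapl2.

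The genes for the enzymes ATG7 and ATG3, which attach ATG8, fell, and those for the 4 proteases that trim and recycle ATG8 did not pass. Atg7 encodes the E1-like enzyme that activates both ATG12 and ATG8, and was at 84.3, 76.8 and 74.4 CPM in Ctrl_MV and 41.8, 45.6 and 34.8 CPM in KD_MV. The KD_MV libraries lay well below the others (log2 fold change -0.95 ± 0.12, edgeR adjusted p = 0.000267). The change was -0.54 with library size and -0.38 with TPM, both past the threshold. The gene length behind the TPM of Atg7 differed by 1.27 times between libraries, so its TPM value is less certain. Atg3, the E2-like enzyme for ATG8, was at 135, 141 and 145 CPM in Ctrl_MV and 87.4, 79.8 and 97.3 CPM in KD_MV (-0.67 ± 0.10, adjusted p = 0.000692). The ATG4 cysteine proteases Atg4a, Atg4b, Atg4c and Atg4d had log2 fold changes of -0.24, -0.29, -0.14 and -0.33 and edgeR adjusted p of 0.106, 0.059, 0.384 and 0.0621. With RLE scaling and DESeq2 Atg4b and Atg4d passed as lower, whereas with TPM Atg4a and Atg4c passed as higher. Atg4b and Atg4d each overlap a protein-coding gene on the opposite strand (Thap4 and Kri1), and whether reads were counted by strand is unknown here, so their counts are uncertain.

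Atg12 encodes the ubiquitin-like protein that is joined to ATG5, and the conjugate binds ATG16L1 to direct ATG8 lipidation. Atg12 was at 68.6, 73.5 and 75.2 CPM in Ctrl_MV and at 41.7, 38.3 and 41.0 CPM in KD_MV. The libraries of each group lay close together and the groups were far apart (log2 fold change -0.84 ± 0.10, edgeR adjusted p = 0.000121; -0.44 with library size, adjusted p = 0.00329; -0.27 with TPM, limma adjusted p = 0.0268). Atg5 fell under TMM and under neither library size nor TPM (54.99, 56.9 and 63.9 against 43.0, 40.6 and 41.4 CPM; -0.49). Atg10, the E2-like enzyme for ATG12 and the least abundant member at 3.12 TPM, had a log2 fold change of 0.19 (edgeR adjusted p = 0.533). Atg16l1 did not pass (-0.26, adjusted p = 0.064). It passed as lower with RLE scaling (0.0435), DESeq2 (0.0443), a stricter filter (0.0439) and without KD_MV replicate 1 (0.0459), and as higher with TPM (0.30, limma adjusted p = 0.0499). Its paralog Atg16l2 rose, from 19.5, 17.9 and 15.6 to 24.3, 23.98 and 20.8 CPM (0.38 ± 0.13, adjusted p = 0.0315; 0.79 with library size and 0.94 with TPM). The Atg16l2 call under TMM was lost when any of 4 libraries was left out, namely Ctrl_MV replicate 2 or 3 or KD_MV replicate 1 or 2 (adjusted p = 0.078, 0.111, 0.0928 and 0.0943). Atg16l2 shares 21372 bases with Fchsd2 on the opposite strand, and its count is uncertain for the same reason. Its share of the pair's TPM was 35.2, 27.9 and 31.3% in Ctrl_MV and 39.0, 46.4 and 42.2% in KD_MV, without overlap. The gene length behind the TPM of Atg16l2 differed by 1.30 times between libraries, which alters that share. Its raw count per Atg16l1 count, which uses no length, went from 0.345 ± 0.0248 to 0.543 ± 0.0292, also without overlap.

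**Figure D3:**
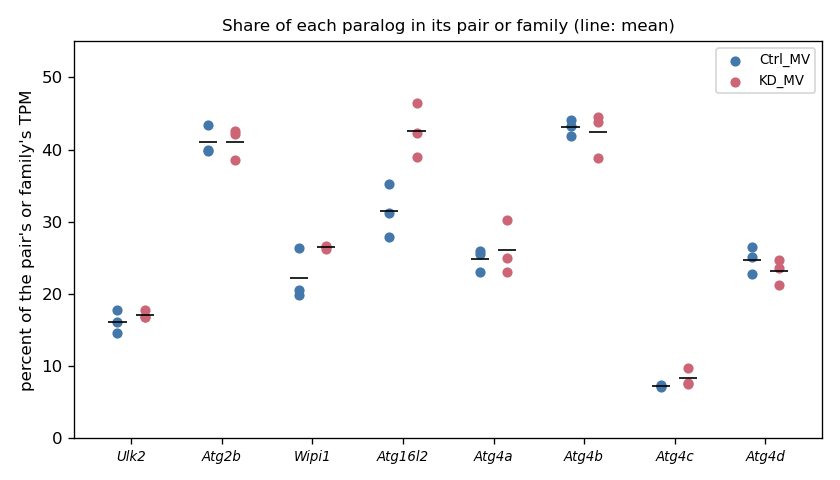
Share of the TPM of a paralog pair (Ulk1 and Ulk2, Atg2a and Atg2b, Wipi1 and Wipi2, Atg16l1 and Atg16l2) or of the 4 Atg4 genes held by the named gene, in percent, each point a library and each line a group mean. Atg16l2 held between 27.9 and 35.2% of its pair in Ctrl_MV and between 39.0 and 46.4% in KD_MV. Atg4c held 7.15 to 7.44% and 7.51 to 9.69% of its family, a narrow gap. The gene lengths behind the TPM differed between libraries by 1.26 times for Atg4b and 1.23 times for Atg4d, so the separation of Atg4c is uncertain. The shares of the other genes shown overlap between the groups.

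The promoter sequences of the 3 conjugation genes Atg3, Atg5 and Atg7 are shown for the E-box CACGTG in the 250 bases before the start. Of the 29 members with promoters in the RefSeq table (33 promoters, GRCm38.p6), only they held it there. MITF/TFE-family factors, regulators of autophagy genes, are known to bind this motif, and so are other factors. The E-box reads the same on both strands, and 6.02% of all 32851 promoters of that length held it, against 9.09% of the members' promoters. The element TGATGNAA of C/EBP-ATF dimers (in 3.45% of all promoters, either strand) and the FOXO element GTAAACA (3.17%) were in 0 of the members' windows. A match is a description of letters and not a site. Capitals mark the E-box, and each run of 100 bases reads 5′ to 3′ along the gene's strand. The runs cover bases 141 to 42 before the RefSeq start for Atg3, 100 to 1 for Atg5 and 179 to 80 for Atg7. The RefSeq start of Atg7 lies 27999 bases inside the gene as the deposited table bounds it, so its window is not that of the gene's first start there.
Atg3, chr16:45158688-45158787, plus strand: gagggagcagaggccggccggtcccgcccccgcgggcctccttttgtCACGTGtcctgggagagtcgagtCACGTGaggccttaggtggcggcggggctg
Atg5, chr10:44268239-44268338, plus strand: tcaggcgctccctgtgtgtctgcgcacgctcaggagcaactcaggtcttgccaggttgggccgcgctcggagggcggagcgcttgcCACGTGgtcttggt
Atg7, chr6:114670917-114671016, plus strand: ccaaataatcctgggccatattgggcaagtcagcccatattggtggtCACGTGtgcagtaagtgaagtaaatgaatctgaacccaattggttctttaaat
The E-box begins 14 bases before the RefSeq start of Atg5 and 132 before the internal one of Atg7, while the Atg3 stretch holds a pair of them, the nearer to its 5′ end 94 bases before the start. Atg3, Atg5 and Atg7 were among the 17 of 35 members that fell under TMM, and Atg5 fell under neither library size nor TPM. Whether the E-box has any part in these falls was not tested. The 100 bases before the start are also given for the gene with the largest fall, Map1lc3b, and the gene with the largest rise, Pik3r4. They hold none of the 3 motifs and so carry no capitals.
Map1lc3b, chr8:121590338-121590437, plus strand: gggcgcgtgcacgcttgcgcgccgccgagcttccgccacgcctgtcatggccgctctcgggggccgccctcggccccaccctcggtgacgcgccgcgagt
Pik3r4, chr9:105642895-105642994, plus strand: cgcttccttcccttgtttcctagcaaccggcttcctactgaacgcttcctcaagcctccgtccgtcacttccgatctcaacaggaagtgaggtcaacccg
These stretches were 79% G or C for Map1lc3b and 56% for Pik3r4, where the median over all promoters was 55% and over the members' promoters 65%.

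In the phosphatidylinositol 3-kinase complex 2 of 5 members rose in all 3 tests. Of all tested genes 27.8% rose under TMM, 46.4% with library size and 57.4% with TPM. Another 2 members of the complex fell under TMM (24.9% of all tested genes did) and under neither library size nor TPM. Pik3r4, which encodes the regulatory subunit VPS15 (chromosome 9, 105642978 to 105687657), was at 19.6, 16.9 and 16.2 CPM in Ctrl_MV and at 31.0, 31.9 and 31.8 CPM in KD_MV. In CPM the groups were far apart and the 3 KD_MV libraries nearly equal (log2 fold change 0.85 ± 0.11, edgeR adjusted p = 0.000332, with 1.25 under library size and 1.08 under TPM). On the TPM scale Pik3r4 was at 9.33, 8.18 and 8.73 in Ctrl_MV and at 15.8, 21.4 and 22.1 in KD_MV. The gene length behind the TPM of Pik3r4 differed by 1.58 times between libraries, the most of all members. Pik3c3, the catalytic subunit VPS34, rose from 21.3, 23.5 and 20.7 to 29.3, 27.99 and 30.3 CPM (0.42 ± 0.11, adjusted p = 0.00986; 0.82 with library size). Becn1, the Beclin 1 scaffold, was at 116, 80.3 and 115 CPM in Ctrl_MV and at 73.6, 77.1 and 69.9 CPM in KD_MV. Ctrl_MV replicate 2 lay near the KD_MV libraries, and the fall of Becn1 (-0.50 ± 0.15, adjusted p = 0.0191) was lost without Ctrl_MV replicate 1 (0.074) or replicate 3 (0.0711). Atg14, the subunit that directs the complex to autophagosome formation, fell under TMM (-0.45 ± 0.14, adjusted p = 0.0209), a call lost without Ctrl_MV replicate 1 (0.0541), Ctrl_MV replicate 2 (0.0684) or KD_MV replicate 2 (0.055). With library size Becn1 was at -0.09 (edgeR adjusted p = 0.61) and Atg14 at -0.05 (0.79). With TPM Becn1 was at 0.014 and Atg14 at 0.094. Counts per Becn1 count, which no scaling alters, went from 0.219 ± 0.0645 to 0.398 ± 0.0354 for Pik3c3 and from 0.173 ± 0.0356 to 0.430 ± 0.0222 for Pik3r4, without overlap.

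Uvrag, the subunit that replaces ATG14 in the complex of the endosomal route, split inside both groups. It was at 42.1, 99.8 and 96.1 CPM in Ctrl_MV and at 72.3, 29.2 and 76.8 CPM in KD_MV, so that Ctrl_MV replicate 1 and KD_MV replicate 2 were low and the other 4 libraries high, and the difference between groups did not pass (-0.42 ± 0.40, adjusted p = 0.409). No other member of the 34 with a mean count over 300 differed by more than 2-fold inside both groups, and 78 of 9309 such genes did.

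**Figure D4:**
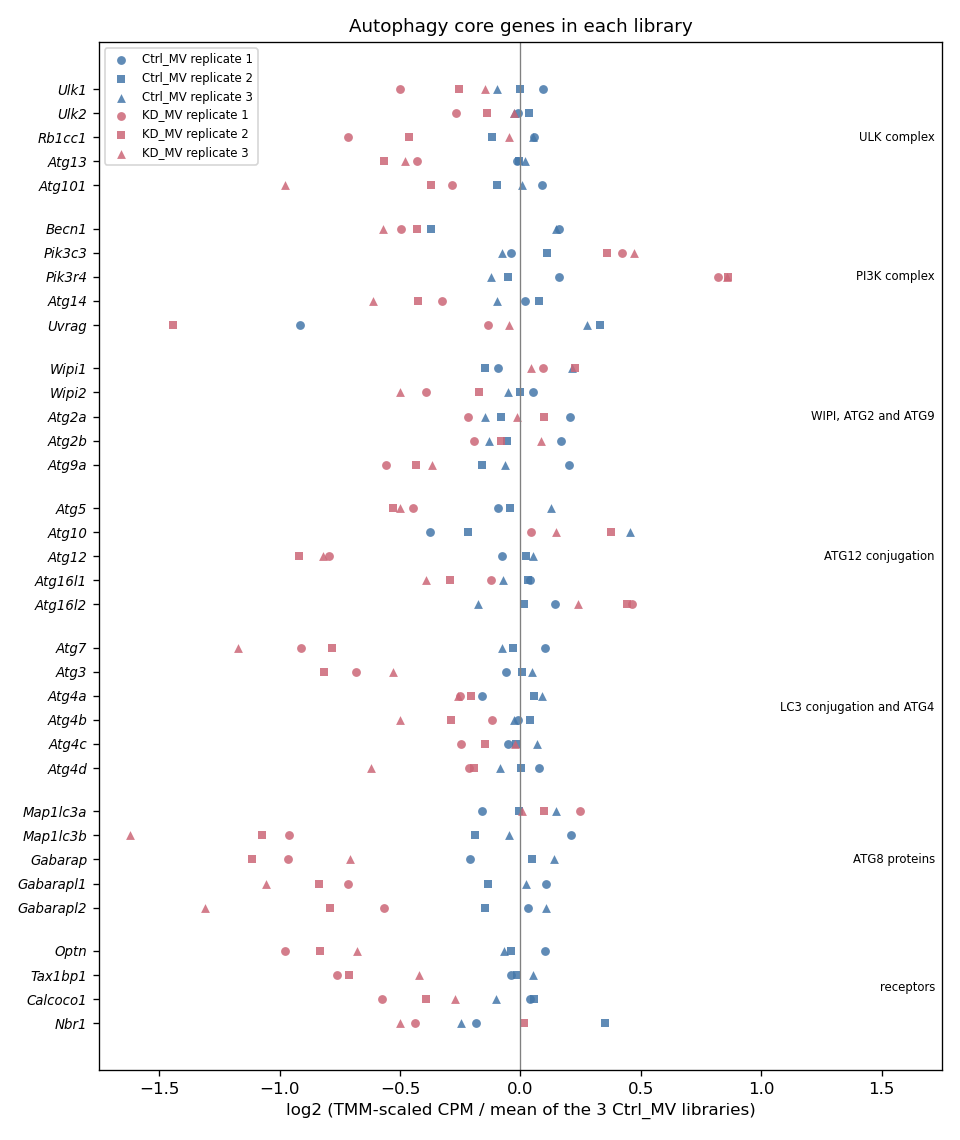
Log2 ratio of each library's TMM-scaled CPM to the mean of the 3 Ctrl_MV libraries for the 35 members, grouped by role (colour for group, symbol for replicate). The KD_MV points lie left of all Ctrl_MV points for 23 members and right of them for Pik3c3, Pik3r4 and Atg16l2; Uvrag splits inside both groups.

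The ULK complex, which starts autophagosome formation, had 2 of its 5 members lower and 3 that did not pass, where 24.9% of all tested genes were lower. Atg101, its most abundant member at 42.0 TPM, was at 41.2, 36.2 and 38.9 CPM in Ctrl_MV and at 31.8, 30.0 and 19.7 CPM in KD_MV. KD_MV replicate 3 was the lowest by far, and the fall (-0.51 ± 0.18, edgeR adjusted p = 0.0356) was lost without Ctrl_MV replicate 1, 2 or 3 (0.105, 0.0585 and 0.0796). Atg13, the subunit that links the kinase to the scaffold, was at 35.3, 35.5 and 36.1 against 26.4, 24.1 and 25.5 CPM (-0.49 ± 0.10, adjusted p = 0.00291). The kinase genes Ulk1 (-0.29, adjusted p = 0.0645) and Ulk2 (-0.14, 0.335) and the scaffold gene Rb1cc1 (-0.38, 0.0894) did not pass, and without KD_MV replicate 3 Ulk1 (0.0219) and Rb1cc1 (0.00531) did. Ulk1 held 83.8 ± 1.57% of the pair's TPM in Ctrl_MV and 82.9 ± 0.591% in KD_MV.

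Among the genes that bring lipid to the growing membrane, Atg9a, which encodes a lipid scramblase carried on vesicles, was at 79.8, 62.1 and 66.5 CPM in Ctrl_MV and at 47.2, 51.4 and 53.9 CPM in KD_MV (-0.45 ± 0.12, edgeR adjusted p = 0.0122). The groups did not overlap. Wipi2, a phosphoinositide-binding protein that recruits ATG16L1, fell by 0.35 (adjusted p = 0.0271), a call lost without any of the 3 Ctrl_MV libraries or KD_MV replicate 1 (0.0505 to 0.0793). The lipid transfer genes Atg2a and Atg2b had values of -0.04 and -0.06 with adjusted p of 0.827 and 0.717. Wipi1 was at 0.12 (0.507). Under library size Atg2a (0.37), Atg2b (0.35) and Wipi1 (0.53) passed as higher.

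Of the 4 receptors, which tie cargo to ATG8 proteins, 3 fell under TMM (24.9% of all tested genes did). Tax1bp1, a receptor for ubiquitin-marked cargo and the second most abundant member at 166 TPM, was at 409, 416 and 436 CPM in Ctrl_MV and at 248, 256 and 314 CPM in KD_MV. The groups did not overlap (-0.62 ± 0.11, edgeR adjusted p = 0.0018). Optn, the optineurin receptor, was at 91.6, 83.1 and 81.5 against 43.4, 48.0 and 53.3 CPM (-0.82 ± 0.11, adjusted p = 0.000326; -0.42 with library size, adjusted p = 0.00938). Calcoco1, a receptor described for the endoplasmic reticulum, fell by 0.41 (adjusted p = 0.0157), a call lost without Ctrl_MV replicate 2 (0.0585) or KD_MV replicate 1 (0.0626). Nbr1, an ubiquitin-binding receptor, did not pass: it was at 53.5, 77.4 and 51.2 against 44.8, 61.3 and 42.9 CPM, and replicate 2 was the highest library in each group (-0.29, adjusted p = 0.237). Nbr1 lies 249862 bases from Becn1 on chromosome 11.

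Level and direction went together among the members. Of the 17 members with a mean TPM between 3.12 and 21.2, 4 fell and 3 rose, with a median log2 fold change of -0.14. Of the 18 between 22.8 and 720 TPM, 13, or 72.2%, fell and 0 rose at an adjusted p under 0.05, with a median of -0.57. All tested genes of the latter range gave 35.4% lower, 27.0% higher and a median of -0.08, and those of the former 21.9%, 34.0% and 0.12.

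Among 25 further autophagy genes tested, 17 were called lower and 2 higher under TMM (24.9% and 27.8% of all tested genes were), and their median was -0.64. They included Wdfy3, which encodes the aggregate adaptor ALFY (402 ± 80.7 to 134 ± 17.0 CPM; log2 fold change -1.58 ± 0.16, edgeR adjusted p = 7.08e-05), Tollip, a receptor for aggregates (-1.01), Vmp1, an endoplasmic reticulum scramblase needed for autophagosome formation (-0.93), and Rab7, the late endosome GTPase (-0.92). The 2 that rose were Fundc1, a mitochondrial receptor (0.45), and Rubcn, an inhibitor of the kinase complex that holds UVRAG (0.50). These 2 genes and Sqstm1, the archetypal autophagy receptor, were named after their values were seen. Sqstm1 went from 3973 ± 246 to 1118 ± 372 CPM (-1.83 ± 0.22, adjusted p = 0.000184), a larger fall than that of any of the 35 core members. With library size only, 9 of these genes fell and 5 rose (12.5% and 46.4% of all tested genes), and with TPM 5 fell and 5 rose (9.14% and 57.4%).

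Of 33 genes of mTORC1, AMPK and nutrient sensing, which set the activity of ULK1, 13 fell and 5 rose (median -0.15), beside 24.9% and 27.8% of all tested genes. Sesn2, a leucine sensor induced by stress, went from 238 ± 7.44 to 23.7 ± 1.02 CPM (-3.33 ± 0.10, edgeR adjusted p = 2.47e-07), and Ddit4, an mTORC1 inhibitor induced by stress, from 233 ± 2.40 to 88.6 ± 14.4 CPM (-1.39). The Rag GTPase gene Rragc (-0.95) and its lysosomal anchor Lamtor1 (-0.88) fell as well. Mtor (chosen after its value was seen) missed the threshold (0.30, adjusted p = 0.0639), and with library size only 7 genes of the list fell and 14 rose, beside 12.5% and 46.4% of all tested genes. Of 16 transcription factors known to act on autophagy genes 10 fell and 1 rose (median -0.86), with the same shares over all tested genes. Atf5 (-4.60), Ddit3 (-2.39), Atf4 (1027 ± 50.3 to 256 ± 11.3 CPM; -2.002) and Nfe2l2 (-1.27) had the smallest p. Of the MITF/TFE family, named after the values were seen, Tfe3 (-0.95), Mitf (-1.06) and Tfec (-1.74) fell, and Tfeb did not pass (-0.16, adjusted p = 0.324). With library size only, 9 of the factors fell and 2 rose, beside 12.5% and 46.4% of all tested genes.

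**Figure D5:**
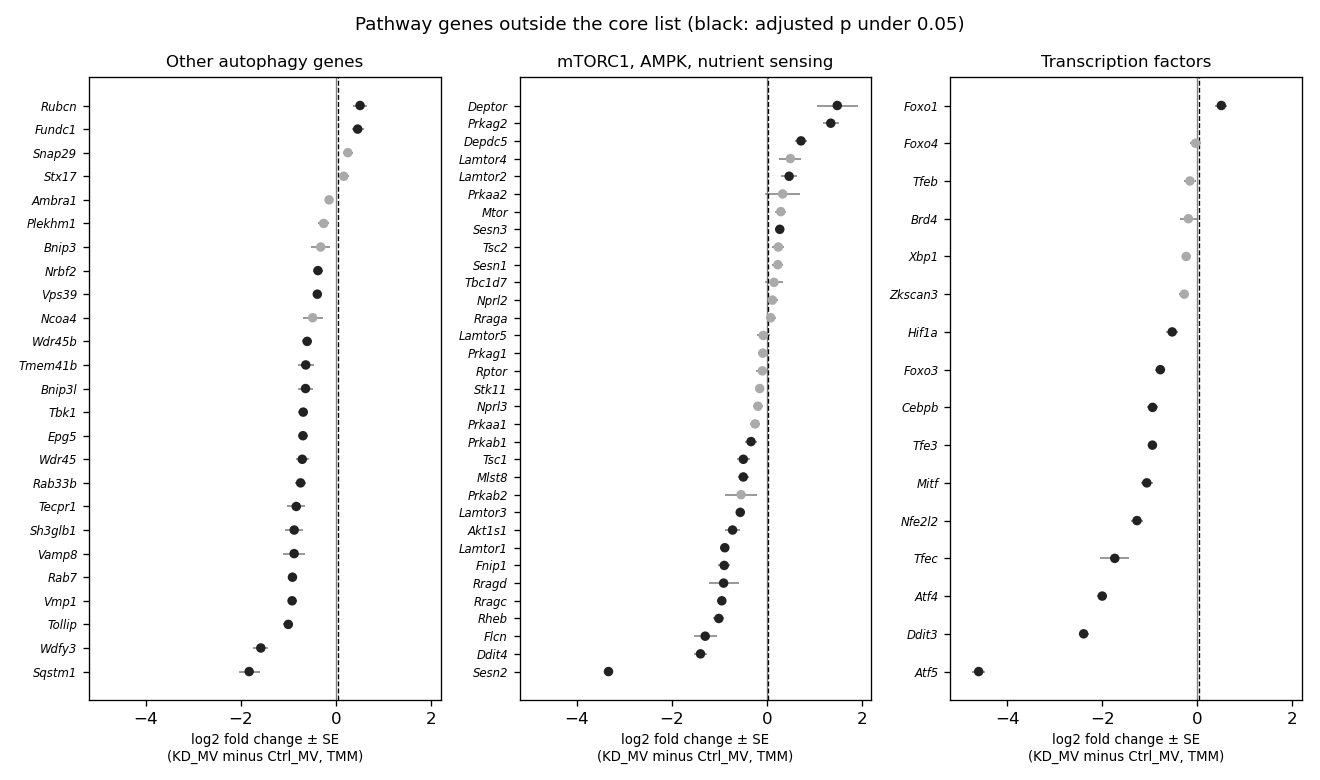
Log2 fold change with its standard error (edgeR, TMM, KD_MV minus Ctrl_MV) of the tested genes of 3 lists around the core machinery, black where the adjusted p was under 0.05; the dashed line is the median of all tested genes, 0.03. In the left and right panels most black points lie left of it, and Sesn2 and Atf5 lie furthest left.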

How the data were processed

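RNA-seq libraries of 6 samples were analysed, 3 per group, grouped by the treatment label. The deposited table holds raw counts, TPM and FPKM per gene and library. Per the submitters' processing notes the authors used Trim Galore, Subread and featureCounts with mm10; their versions, the annotation release and the strand setting: not given in the sources used here. TPM values of the authors were used for levels and shares, and the deposited FPKM only with the counts, to see the gene length they imply. That length differed by over 1.2 times between libraries for 9 members, most for Pik3r4 (1.58 times).

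The main test was the quasi-likelihood test of edgeR 4.0.16 (R 4.3.3) on TMM-scaled counts, without covariates. Low genes were removed by filterByExpr (count 10, total 15), and p-values were adjusted by Benjamini-Hochberg over 16071 genes, with a threshold of 0.05. The code was tested on simulated data. Log2(TPM + 1) was tested with limma 3.58.1, and DESeq2 1.42.0, other scalings and filters and each library left out were alternatives. Promoters came from RefSeq (GRCm38.p6). The members, gene lists and motifs were chosen with earlier results of these data known. All 35 members are named. By rule, values in every library were due for members called with an absolute log2 fold change of at least 1 and for the most abundant member of each role class, and in each list around the members the 4 genes with the smallest p were named; values by library for other members, and other genes, were chosen after their values were seen. Same-numbered replicates did not deviate together (correlations of -0.0067, -0.079 and -0.054), so the numbers were not used as pairs.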

Additional observations from a re-analysis of the deposited data

How the results depend on the processing

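Library-size scaling and the TPM test moved the members' counts most among the settings run. The TPM test also changed the transform, the length correction and the filter. With library size only, 7 members rose and 7 fell, with a median of 0.021, and over all genes 7455 rose and 2010 fell. With limma on log2(TPM + 1), 12 members rose and 4 fell, with a median of 0.13 (-0.38 relative to the median gene), and over all genes 7719 rose and 1228 fell. Signs turned with library size for Ulk1 (0.11), Ulk2 (0.26), Rb1cc1 (0.021), Wipi2 (0.057), Atg2a (0.37), Atg2b (0.35), Atg16l1 (0.14), Atg4a (0.17), Atg4b (0.11), Atg4c (0.27), Atg4d (0.075) and Nbr1 (0.11). With TPM they turned for Ulk1 (0.30), Ulk2 (0.34), Rb1cc1 (0.12), Atg13 (0.034), Atg101 (0.027), Becn1 (0.014), Atg14 (0.094), Uvrag (0.13), Wipi2 (0.21), Atg2a (0.47), Atg2b (0.46), Atg9a (0.10), Atg5 (0.079), Atg16l1 (0.30), Atg4a (0.31), Atg4b (0.23), Atg4c (0.38), Atg4d (0.16), Calcoco1 (0.093) and Nbr1 (0.27). Those of Atg2a and Atg2b also turned with no filter (0.021 and 0.0015) and without Ctrl_MV replicate 1 (0.075 and 0.035) or KD_MV replicate 1 (0.041 and 0.0040); with 1 library left out Atg2a ran from -0.11 to 0.075 and Atg2b from -0.14 to 0.035. The cause was not tested.

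With no filter the members' median was -0.32, or -0.37 relative to the median gene, and at a threshold of 0.01 on the adjusted p 11 members fell. With 1 library left out 2 to 3 members rose and 13 to 19 fell, with medians of -0.41 to -0.35 (-0.43 to -0.39 relative to the median gene), and 3809 to 4494 of all genes rose and 3478 to 4216 fell. With the replicate block 3 members rose and 17 fell, with a median of -0.40, and no member's call changed. The labels do not say whether the numbers pair the libraries. DESeq2 and RLE scaling gave 3 and 21, and limma-voom, upper-quartile scaling and leaving out 4 hemoglobin genes 3 and 17.

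Of the other autophagy genes 5 rose and 9 fell with library size, 5 rose and 5 fell with TPM, 0 rose at 0.01 (2 in the same edgeR test at 0.05) and 0 to 2 with 1 library left out. Of the mTORC1 and AMPK genes 14 rose and 7 fell with library size, 17 and 6 with TPM, 2 rose at 0.01, 3 with the replicate block and 3 to 5 with 1 library left out. Of the transcription factors 2 rose with library size and 4 with TPM.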

Other observations

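The female-specific transcript Xist, between 16341 and 20184 counts per library, and the Y-linked genes Ddx3y, Eif2s3y, Uty and Kdm5d were counted in all 6 libraries. The labels give no sex and no number of animals per library.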
